A study of Sus scrofa with 43 samples.

Results

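The crypt proliferation genes followed here were BIRC5, CDK1, CCNB1, CCNA2, TOP2A and MKI67, all of which are transcribed mainly in dividing cells. Spots were taken where the transcript accession on the array, without its version, was a porcine RefSeq transcript of one of these symbols. Of the 6 genes, 4 had a probe: BIRC5 (NM_214141, 2 probes), CDK1 (NM_001159304, 2 probes), CCNB1 (NM_001170768, 1 probe) and TOP2A (NM_213884, 1 probe), out of 35884 transcript accessions on the array. CCNA2 and MKI67 were matched by no probe and were not analysed here. The spots of the 4 genes were well above background on all 43 arrays, with no outlier flag and no saturation, so that all 4 passed the filter on dim probes that left 12771 accessions to be tested.

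RNA came from jejunal scrapings of 43 male piglets, each on 1 array, with 1 piglet taken from a litter of Hypor gilts and sows at each age. Sows of the amoxicillin group received 15 mg/kg body weight of oral amoxicillin each day, mixed on their feed, from a week before expected farrowing until farrowing, and control sows received none; the piglets of both groups were not dosed themselves and were nursed by sows on the same lactation feed. The control group held 6 piglets of day 1, 6 of day 7, 3 sampled at weaning, 5 sampled 4 d postweaning and 3 sampled 4 wk (28 d) postweaning, and the amoxicillin group held 4 piglets of each of these ages. The arrays lay on 6 slides, of which 3 held control piglets alone and 3 amoxicillin piglets alone, so that treatment and slide cannot be told apart, whereas neighbouring ages shared slides. The number of spots well above background ranged from 15937 to 29827 on control arrays (median 28182) and from 16150 to 26290 on amoxicillin arrays (median 21316.5). The lowest control value was that of piglet 34 at 4 wk postweaning. In amoxicillin piglets it ranged from 20321 to 25580 on day 1 and from 16150 to 20940 at 4 wk postweaning. The part of this in the differences between groups and ages was not tested. The paper divided its sows over several batches. The batch of each piglet is not given in the sources used here, so the part of sow batch was not tested either.

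The small intestinal epithelium is renewed continuously by stem cells and transit-amplifying cells at the base of the crypts, from which daughter cells move up the villus, stop dividing and differentiate. Passage through the cell cycle is driven by cyclin-dependent kinases, each active only while bound to a cyclin that is made and destroyed within the cycle. CDK1 bound to cyclin B1 (CCNB1) triggers entry into mitosis, topoisomerase II alpha (TOP2A) disentangles the replicated chromosomes, and survivin (BIRC5) belongs to the chromosomal passenger complex that guides chromosome segregation and cell division. Transcripts of these genes accumulate in late S, G2 and M phase, which is why their level in a tissue is commonly read as a measure of how many cells are dividing. In a scraping, fewer dividing cells and less of these RNA per dividing cell cannot be told apart, and dividing lymphocytes carry the same transcripts as dividing crypt cells.

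Signals are given as quantile normalised log2 values, on which a difference of 1 is a 2-fold difference, and are compared between piglets for 1 gene at a time, never between genes. With all 43 arrays, none of the 4 genes passed any test between ages or between treatments. At weaning the spread between piglets was larger than at any other age. The arrays of control piglet 7 and amoxicillin piglet 8 stood far above the other weaning arrays, and control piglet 25 was the lowest weaning array for all 4 genes. Apart from piglets 7 and 8, the 4 genes had their lowest means at weaning and higher means 4 d later in both groups. Piglets 7 and 8 are set apart because they were high, so differences from the lower weaning piglets are partly fixed by that choice.

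**Figure D1:**
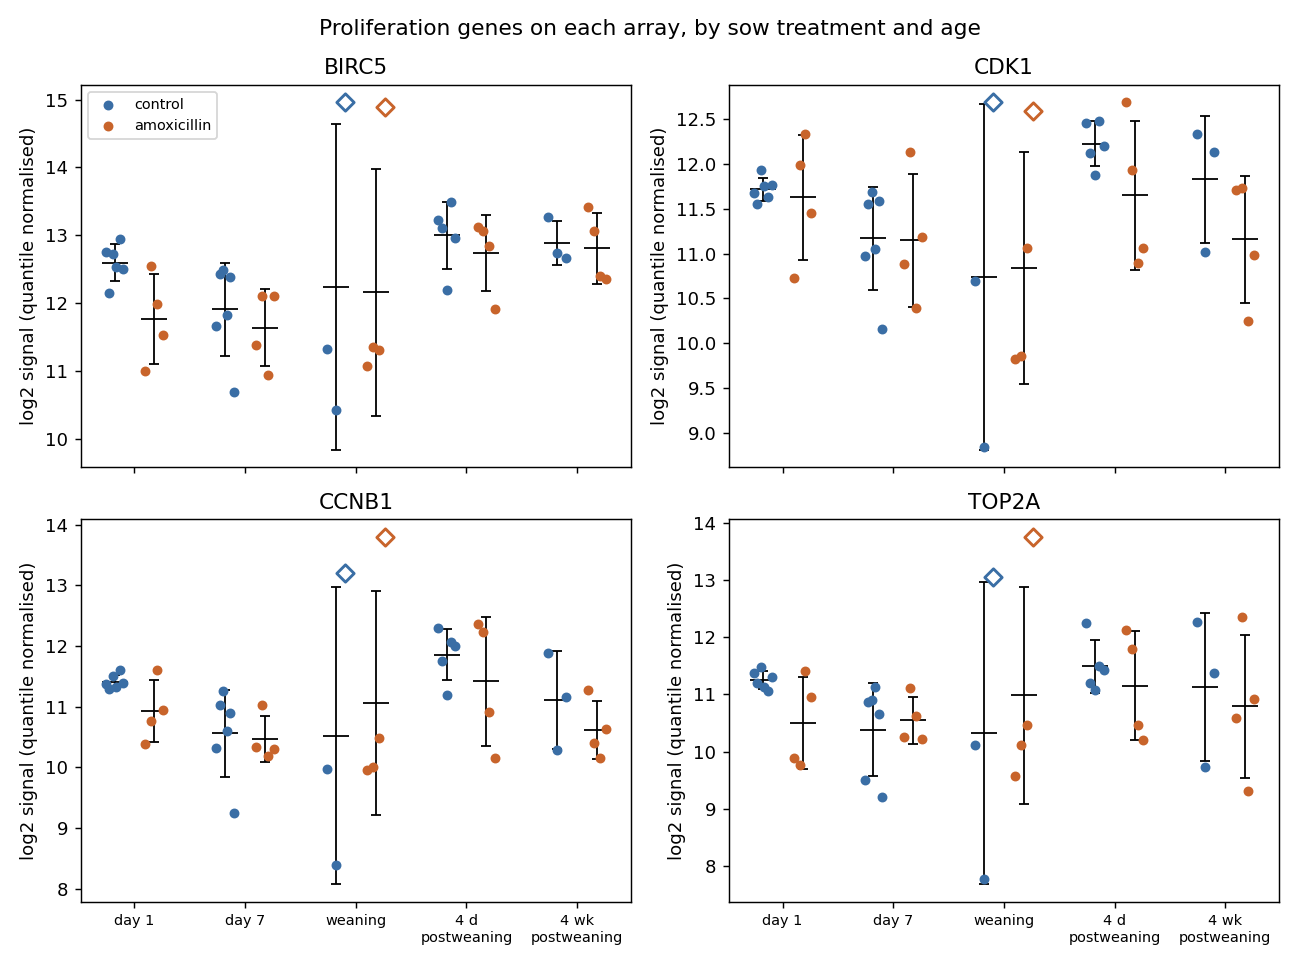
Log2 signal of BIRC5, CDK1, CCNB1 and TOP2A (y axis, quantile normalised, a panel per gene) on each array at the 5 ages (x axis), for control (blue) and amoxicillin (orange) piglets; horizontal bars are group means, error bars SD, and open diamonds the arrays of control piglet 7 and amoxicillin piglet 8. At weaning the diamonds sit at 14.96 and 14.89 for BIRC5, while the other weaning arrays lie between 10.42 and 11.35.

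BIRC5, which codes for survivin, was measured at a median of 12.63 on day 1 in control piglets (lowest 12.15, highest 12.94) and at a median of 12.1 on day 7 (10.69 to 12.49). At weaning the 3 control piglets had 14.96 (piglet 7), 11.32 (piglet 24) and 10.42 (piglet 25). At 4 d postweaning the 5 control piglets had 13.23, 13.11, 12.19, 13.49 and 12.96, all of them above piglets 24 and 25 and below piglet 7. At 4 wk postweaning the values were 13.27, 12.74 and 12.67. In amoxicillin piglets BIRC5 was 11.99, 11, 12.55 and 11.53 on day 1, and 12.1, 11.39, 12.11 and 10.95 on day 7. At weaning it was 11.31 (piglet 7), 14.89 (piglet 8), 11.08 (piglet 25) and 11.35 (piglet 29), so that 3 piglets lay close together and 1 apart. At 4 d postweaning it was 13.13, 13.07, 12.84 and 11.92, again above the 3 lower weaning piglets and below piglet 8. At 4 wk postweaning it was 13.42, 13.06, 12.4 and 12.35. BIRC5 is also an inhibitor of apoptosis, and these are the same values that would describe it among the apoptosis genes.

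CDK1, the kinase that starts mitosis, ranged from 11.55 to 11.93 on day 1 in control piglets (median 11.72) and from 10.16 to 11.69 on day 7 (median 11.31). At weaning the control piglets had 12.69 (piglet 7), 10.69 and 8.84, and at 4 d postweaning 12.46, 12.12, 11.88, 12.48 and 12.2. The 4 d values thus lay above both lower weaning piglets and below piglet 7, and at 4 wk postweaning CDK1 was 12.34, 11.02 and 12.14. In amoxicillin piglets CDK1 was 12.34, 10.73, 11.99 and 11.45 on day 1 and 11.19, 10.88, 12.14 and 10.39 on day 7. At weaning it was 11.06, 12.59 (piglet 8), 9.82 and 9.86, and at 4 d postweaning 12.69, 11.93, 10.9 and 11.06. Here the ages overlapped, since the highest of the 3 lower weaning piglets reached the lower pair of the 4 d piglets. At 4 wk postweaning CDK1 was 11.71, 11.73, 10.25 and 10.98 in this group.

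CCNB1, the cyclin that activates CDK1, ranged from 11.29 to 11.6 on day 1 (median 11.38) and from 9.25 to 11.26 on day 7 (median 10.75) in control piglets. At weaning it was 13.2 (piglet 7), 9.97 and 8.39, and at 4 d postweaning 12.29, 11.75, 11.2, 12.06 and 12. Every 4 d piglet lay more than 1 log2 unit above the higher of piglets 24 and 25, and below piglet 7. At 4 wk postweaning the values were 11.88, 10.29 and 11.16. In amoxicillin piglets CCNB1 was 11.6, 10.39, 10.77 and 10.94 on day 1, and 10.3, 10.34, 11.02 and 10.18 on day 7. At weaning it was 10.49, 13.8 (piglet 8), 9.95 and 10.01, and at 4 d postweaning 12.37, 12.23, 10.92 and 10.16. The lowest 4 d amoxicillin piglet therefore lay within the range of the 3 lower weaning piglets, and at 4 wk postweaning they were 11.28, 10.4, 10.15 and 10.63.

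TOP2A, the topoisomerase of dividing cells, ranged from 11.05 to 11.48 on day 1 (median 11.25) and from 9.2 to 11.12 on day 7 (median 10.76) in control piglets. At weaning it was 13.05 (piglet 7), 10.11 and 7.78, and at 4 d postweaning 12.25, 11.2, 11.07, 11.5 and 11.42, above piglets 24 and 25 and below piglet 7. At 4 wk postweaning it was 12.27, 9.73 and 11.38, a wider range than on day 7. In amoxicillin piglets TOP2A was 11.41, 9.89, 9.76 and 10.96 on day 1, and 10.22, 10.25, 11.11 and 10.62 on day 7. At weaning it was 10.46, 13.75 (piglet 8), 9.58 and 10.11, and at 4 d postweaning 12.12, 11.79, 10.47 and 10.21. One 4 d piglet at 10.21 lay below the highest of the 3 lower weaning piglets, and at 4 wk postweaning the values were 10.59, 12.35, 9.31 and 10.92.

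On day 1 the control piglets were close together, with an SD of 0.27 for BIRC5, 0.13 for CDK1, 0.12 for CCNB1 and 0.16 for TOP2A (n = 6). The amoxicillin piglets of the same age had SD of 0.66, 0.7, 0.51 and 0.81 (n = 4). This difference in spread was not tested. All 6 day 1 control arrays lay on 1 slide, and all 4 day 1 amoxicillin arrays on another. The 6 control arrays include the labels 19 and 19B.

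The 2 arrays that stood apart at weaning differed from their groups in much more than the 4 proliferation genes. They held the first and second rank of all 43 arrays for BIRC5, CCNB1 and TOP2A, and ranks 2 and 3 for CDK1. Of 9 other G2 and M phase genes that could be tested, 8 had these arrays as their highest pair, the exception being AURKA, and all 9 were above every other weaning array of the same group. The levels of DNMT1, the maintenance DNA methyltransferase, were 13.26 in control piglet 7 and 13.64 in amoxicillin piglet 8, against 9.19 to 11.31 on all other arrays.

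The B cell antigen receptor component CD79A was at 14.21 in control piglet 7 and at 14.67 in amoxicillin piglet 8, against 5.27 to 10.33 on the other arrays. The B cell surface antigen MS4A1 was at 12.65 and 12.86, against 4.25 to 9.55. Both B lineage genes with a probe, of 8 listed, were thus highest on these 2 arrays. The summed signal of the B lineage list, on the log2 scale, was 14.63 and 15.03 on them, whereas the lowest weaning array was at 8 in control and at 8.71 in amoxicillin piglets, and the other 8 groups ranged from 6.06 to 10.9. T cell genes did not follow as a group: of 8 with a probe, CD247 and LCK were above the other weaning arrays in both piglets, and CD3D and CD3E were below them. The defining T cell gene CD3E was at 10.1 and 9.91, near its median of 10.59 on the other arrays.

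Genes of absorptive enterocytes were low on the array of amoxicillin piglet 8. FABP1, a fatty acid binding protein of enterocytes, was at 13.25 there, against 15.65 to 16 on the arrays other than these 2. APOA4, an apolipoprotein of chylomicrons, was at 12.1, against 15.76 to 16. Control piglet 7 had FABP1 at 15.36 and APOA4 at 15.47, which were also below all arrays other than these 2. Of 7 enterocyte genes with a probe, 5 were below every other weaning array of the group in both piglets, and the summed signal of the list, on the log2 scale, ranged from 18 to 18.36 over the weaning arrays of control and from 16.98 to 18.42 over those of amoxicillin piglets. FABP6, which codes for the ileal bile acid binding protein and was looked at after the values were seen, was at 15.98 and 15.99 on the 2 arrays. SLC10A2, the ileal bile acid transporter, was at 8.55 (control piglet 7) and 8.81 (amoxicillin piglet 8), rank 19 and 16 of the 43 arrays. The part of lymphoid tissue, of sampling site and of enterocyte content in the high proliferation signal of these 2 piglets was not tested.

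**Figure D2:**
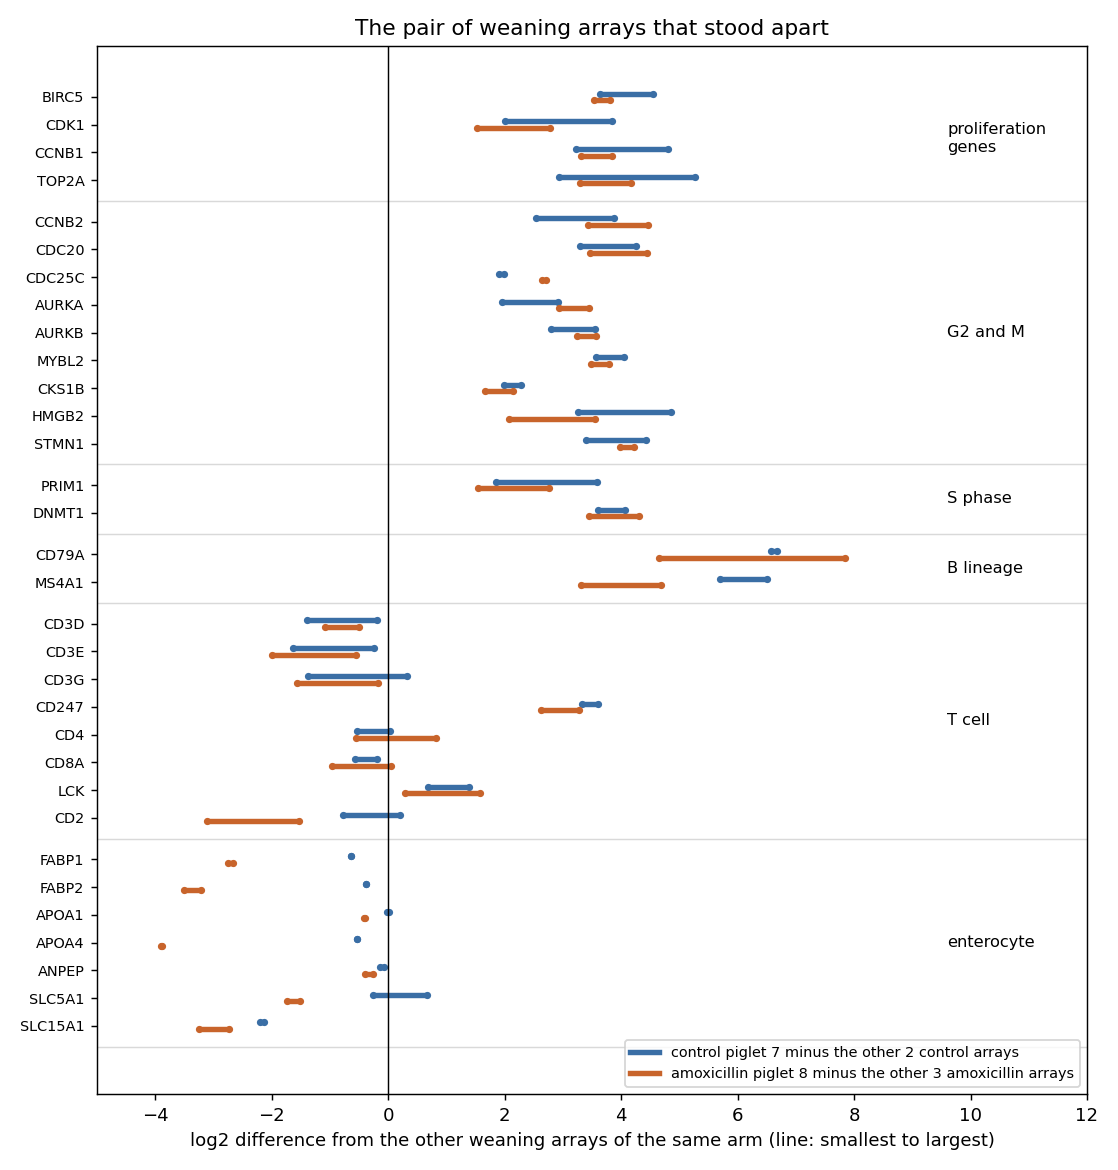
Log2 difference (x axis) between the weaning array that stood apart and the other weaning arrays of its group, for genes of 6 lists (y axis); each line runs from the smallest to the largest difference, for control piglet 7 against 2 arrays (blue) and amoxicillin piglet 8 against 3 arrays (orange). All 4 proliferation genes and all 9 G2 and M phase genes lie to the right of 0 together with the B lineage genes, while all 7 enterocyte genes lie left of 0 for amoxicillin piglet 8.

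The question of whether the proliferation genes changed with age was addressed with limma, which fitted all 10 groups together, and a gene was called at an adjusted p under 0.05. Over the 5 ages in control piglets 0 of 4 genes were called (adjusted p from 0.181 to 0.498), while 30.5% of all 12771 tested accessions were. Over the 5 ages in amoxicillin piglets 0 of 4 were called (adjusted p from 0.321 to 0.918), against 47% of all. At an unadjusted p under 0.05 neither group had any of the 4.

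None of the steps between neighbouring ages was called for any of the 4 genes. From day 1 to day 7 the control piglets had lower means for all 4, with a median log2 difference of -0.77, in a step in which 1.43% of all accessions were called. The 2 day 7 control piglets on slide 1, which also held day 1, differed from day 1 by -1.16 (CDK1) to -1.9 (TOP2A). The 4 day 7 control piglets on slide 2 had BIRC5 of 11.83 to 12.49 and TOP2A of 10.65 to 11.12. In amoxicillin piglets the median of this step was -0.3, with 0.736% of all accessions called. From day 7 to weaning the medians were -0.05 in control and 0.48 in amoxicillin piglets, where 0.125% and 11.3% of all accessions were called. From weaning to 4 d postweaning all 4 genes had higher means in both groups, by a median of 1.25 in control and 0.47 in amoxicillin piglets, with 2.53% and 6.37% of all accessions called. Without control piglet 25, and with piglet 7 kept, the control differences were -0.15 for BIRC5, 0.54 for CDK1, 0.28 for CCNB1 and -0.09 for TOP2A. In this step CDK1 in control piglets had a log2 difference of 1.49 ± 0.58 (SE), with an adjusted p of 0.139 in limma, and was the only gene of the 4 under 0.05 before adjustment in any comparison. From 4 d to 4 wk postweaning the medians were -0.38 in control and -0.42 in amoxicillin piglets, with 0% and 12.7% of all accessions called. The whole span from day 1 to 4 wk postweaning gave a median of -0.01 in both groups, while 25.6% and 31.4% of all accessions were called.

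The same fit was repeated without the 2 arrays, which were set apart because their proliferation genes were high and which also carried high B lineage signal. Leaving them out lowers the weaning means, so steps to and from weaning in this fit are partly fixed by that choice. They were left out after their values for the proliferation genes had been seen, so the p-values of this second fit are too small and describe the remaining 41 arrays. The SD within groups then fell from 0.95 to 0.52 for BIRC5, from 0.82 to 0.63 for CDK1, from 0.99 to 0.6 for CCNB1 and from 1.13 to 0.81 for TOP2A. Over the 5 ages 4 of 4 genes were called in control piglets (adjusted p from 0.000354 for CCNB1 to 0.0119 for TOP2A), where 36.4% of all accessions were called. In amoxicillin piglets 1 of 4 was called, BIRC5 (adjusted p = 0.00175), where 52.4% of all accessions were. With slide as a fixed block in addition, 4 of 4 were called in control (2.92% of all accessions) and 2 of 4, BIRC5 and CCNB1, in amoxicillin piglets (17.6% of all).

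Without the 2 arrays, weaning was the age of the lowest means for all 4 genes in both groups. From day 7 to weaning 0 of 4 were called in control piglets (differences from -1.43 to -1.04, adjusted p from 0.401 to 0.574). BIRC5 had a mean of 10.87 ± 0.64 (SD, n = 2) at weaning and 13 ± 0.49 (n = 5) at 4 d postweaning in control piglets, a difference of 2.12 ± 0.43 (SE; adjusted p = 0.0034). CDK1 went from 9.77 ± 1.31 to 12.23 ± 0.25, a difference of 2.46 ± 0.51 (adjusted p = 0.00433). CCNB1 went from 9.18 ± 1.12 to 11.86 ± 0.42, a difference of 2.68 ± 0.49 (adjusted p = 0.00172), and TOP2A from 8.95 ± 1.65 to 11.49 ± 0.46, a difference of 2.54 ± 0.65 (adjusted p = 0.0165). All 4 genes were thus called as higher at 4 d postweaning, in a step in which 6.66% of all accessions were called. These control values rest on 2 weaning piglets. In the same step 2 of 3 smooth muscle genes were called as lower, with a median difference of -2.05, whereas with all arrays 0 of 3 were called and the median was -1.46. The summed log2 signal of that list ranged from 12.23 to 13.82 at weaning and from 10.74 to 13.08 at 4 d postweaning in control piglets, and its part in the step of the proliferation genes was not tested.

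In amoxicillin piglets the same step was called, in the fit without slide, for BIRC5 alone. BIRC5 went from 11.25 ± 0.15 (SD, n = 3) to 12.74 ± 0.56 (n = 4), a difference of 1.49 ± 0.39 (SE; adjusted p = 0.0136), and was the 1 of 4 genes called, where 9.87% of all accessions were called. CDK1 differed by 1.4 ± 0.47 (adjusted p = 0.0503), CCNB1 by 1.27 ± 0.45 (adjusted p = 0.063) and TOP2A by 1.1 ± 0.59 (adjusted p = 0.239). With slide as a fixed block in addition, 3 of 4 were called (13.5% of all accessions), BIRC5 at 1.77 (adjusted p = 0.00156), CDK1 at 1.59 (adjusted p = 0.0243) and CCNB1 at 1.69 (adjusted p = 0.00657). TOP2A was at 1.41 (adjusted p = 0.109). The difference between the groups over the ages was tested by itself, and none of the 4 genes passed for treatment by age without the 2 arrays (adjusted p from 0.463 to 0.688). BIRC5 was also higher at 4 wk postweaning than on day 1 in amoxicillin piglets, by 1.04 ± 0.36 (SE; adjusted p = 0.0235), where 35.4% of all accessions were called. With the slide block it was 3.05 (adjusted p = 0.0122, 7.92% of all accessions), although the arrays of these ages share no slide. The link between their slides runs through single arrays, day 7 piglet 24 on slide 5 and 4 d piglet 34 on slide 6. The difference between the 2 BIRC5 probes was -0.71 to -0.16 on the day 1 amoxicillin arrays and 0.09 to 0.25 on the 4 wk amoxicillin arrays. The size of the BIRC5 change over this span thus depended on the probe. Over the same span 7 of 7 T cell genes were called as higher, with a median of 2.78, and their summed log2 signal ranged from 9.54 to 10.25 on day 1 and from 12.9 to 13.93 at 4 wk. Their part in the BIRC5 difference was not tested. Without the slide block the other 3 genes had differences of -0.46 ± 0.43 (CDK1), -0.31 ± 0.41 (CCNB1) and 0.29 ± 0.55 (TOP2A) over that span. With the slide block they were 1.33 (CDK1, adjusted p = 0.49), 1.73 (CCNB1, adjusted p = 0.245) and 1.45 (TOP2A, adjusted p = 0.551) in limma.

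**Figure D3:**
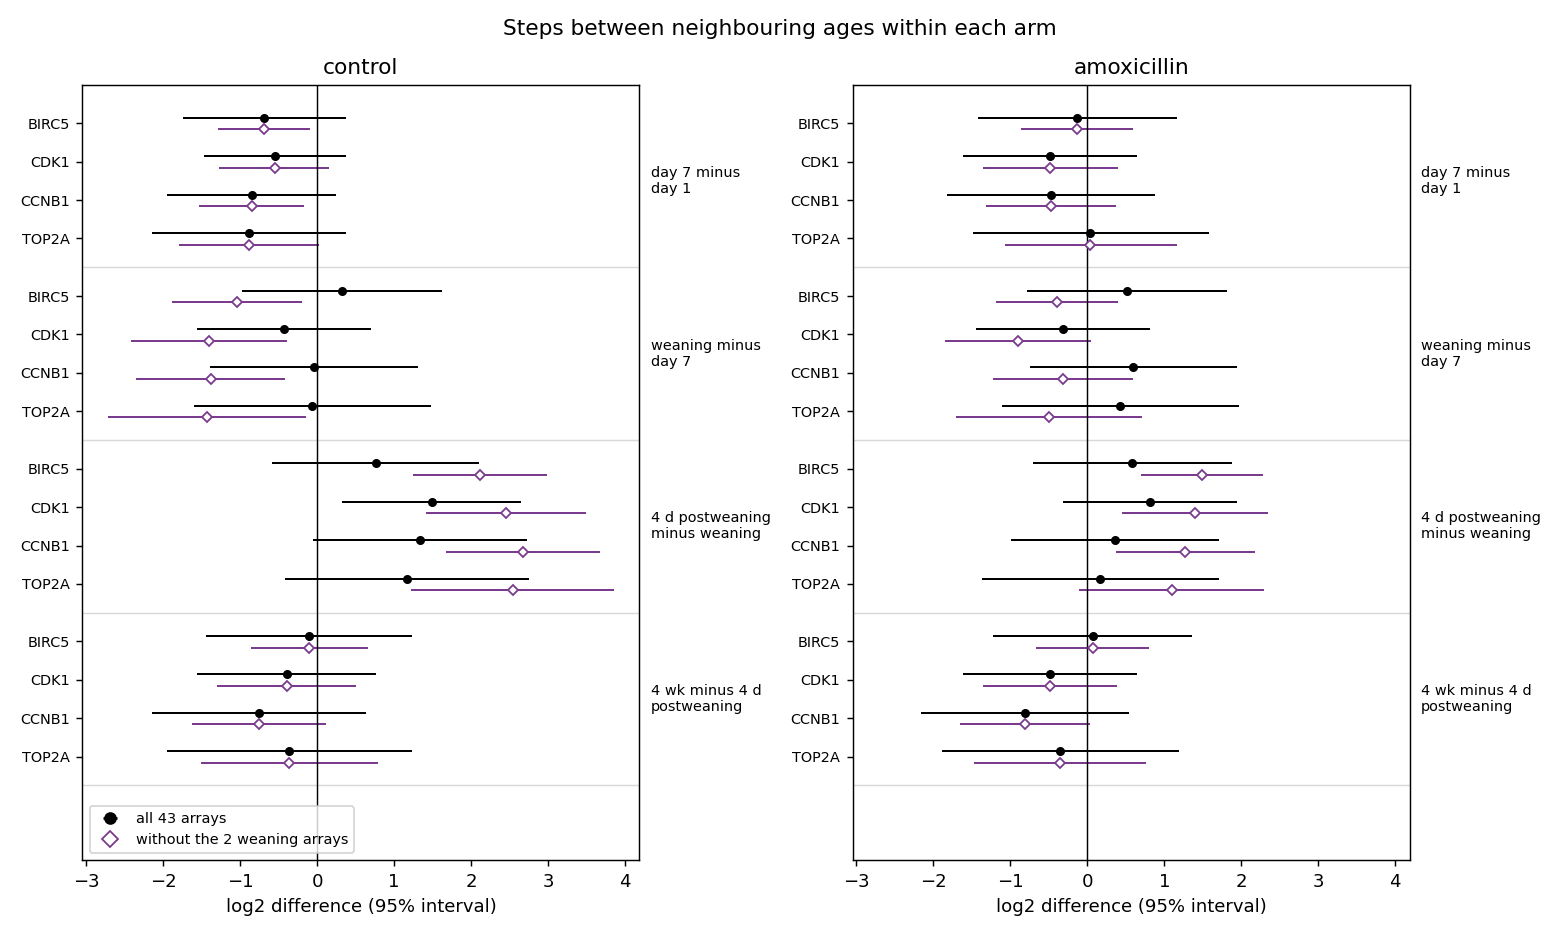
Log2 differences between neighbouring ages (x axis, points with 95% intervals) for the 4 proliferation genes within control (left) and amoxicillin (right) piglets, from all 43 arrays (black circles) and without the 2 weaning arrays that stood apart (open diamonds). From weaning to 4 d postweaning the control estimates without the 2 arrays lie between 2.12 and 2.68, with all 4 intervals above 0.

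The step after weaning was also read within slides, since 1 slide of each group held piglets of both ages. Without piglets 7 and 8 these differences equal the estimates with slide as a fixed block, so they are no separate support. On the control slide, 1 piglet at 4 d postweaning stood 2.36 above the 2 lower weaning piglets for BIRC5, 2.69 for CDK1, 3.11 for CCNB1 and 3.31 for TOP2A. On the amoxicillin slide, the 3 piglets at 4 d postweaning had means 1.77, 1.59, 1.69 and 1.41 above the 3 lower weaning piglets for the same genes. With piglets 7 and 8 included these differences were 0.99, 1.72, 1.77 and 1.94 in control and 0.86, 1.01, 0.78 and 0.48 in amoxicillin piglets. Control piglet 10, the only control piglet at 4 d postweaning on that slide, had the highest CCNB1 and TOP2A of its age, and amoxicillin piglet 10 the highest of all 4 genes.

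FABP6 was above 15 on 6 arrays, the 2 weaning arrays, those of both piglets 10 at 4 d postweaning, and 1 array of each group at 4 wk postweaning. SLC10A2 was at 13.58 and 11.96 on the arrays of control and amoxicillin piglet 10 and at 13.45 and 10.31 on those of control piglet 13 and amoxicillin piglet 40 at 4 wk, above its values of 8.55 and 8.81 on the weaning arrays. When all 6 were left out, a choice made after the data were seen, the step from weaning to 4 d postweaning in control piglets was 2.06 ± 0.45 (SE) for BIRC5, 2.4 ± 0.52 for CDK1, 2.57 ± 0.48 for CCNB1 and 2.35 ± 0.64 for TOP2A. All 4 were called (adjusted p from 0.00158 to 0.0205; 9.11% of all accessions). In amoxicillin piglets BIRC5 differed by 1.36 ± 0.42 (adjusted p = 0.0402; 8.41% of all accessions), and the other 3 genes by 1.05 ± 0.49, 0.96 ± 0.46 and 0.77 ± 0.61 (adjusted p from 0.175 to 0.448). Over the 5 ages 4 of 4 genes were called in control piglets (37.5% of all accessions) and BIRC5 alone in amoxicillin piglets (52.2%), and BIRC5 was again called between day 1 and 4 wk postweaning in amoxicillin piglets (35.7%).

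The effect of maternal amoxicillin on the proliferation genes was tested at each age, and a gene was called where its log2 fold change was beyond 1.5 and its adjusted p was under 0.05. On day 1, 0 of 4 genes were called, while 0.211% of all accessions were. All 4 means were lower in amoxicillin piglets, by -0.83 for BIRC5 (95% interval -2.01 to 0.35), -0.1 for CDK1 (-1.13 to 0.93), -0.49 for CCNB1 (-1.72 to 0.74) and -0.75 for TOP2A (-2.15 to 0.66). Without the 2 weaning arrays, which leaves the day 1 values themselves as they were, the interval of BIRC5 was -1.5 to -0.16 (adjusted p = 0.28).

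On day 7 the differences were between -0.27 (BIRC5) and 0.17 (TOP2A), 0 of 4 genes were called, and 0% of all accessions were. At weaning they were -0.08 for BIRC5, 0.09 for CDK1, 0.54 for CCNB1 and 0.66 for TOP2A, with 0 of 4 called against 3.41% of all accessions. Without the 2 arrays all 4 means were higher in amoxicillin piglets, by 0.37, 0.48, 0.96 and 1.1, and the interval of TOP2A reached from -0.34 to 2.54. Without control piglet 25, and with all other arrays kept, CDK1 was at -0.86, CCNB1 at -0.52 and TOP2A at -0.61. At 4 d postweaning all 4 means were lower in amoxicillin piglets, with differences between -0.26 (BIRC5) and -0.58 (CDK1), and at 4 wk postweaning between -0.09 (BIRC5) and -0.67 (CDK1). At these ages 0 of 4 genes were called, against 1.54% and 2.13% of all accessions. None of the 20 treatment differences reached an unadjusted p under 0.05 with all arrays. The intervals include differences of more than 1.5 log2 units in at least 1 direction for TOP2A at all 5 ages. With these numbers of piglets a difference of the size of the threshold was thus not excluded for TOP2A at any age. On day 7 the intervals of BIRC5 (-1.46 to 0.91), CDK1 (-1.05 to 1.01) and CCNB1 (-1.33 to 1.13) lay within 1.5 in both directions.

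Treatment by age gave 0 of 4 genes (adjusted p from 0.898 to 0.971), where 6.18% of all accessions were called.

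**Figure D4:**
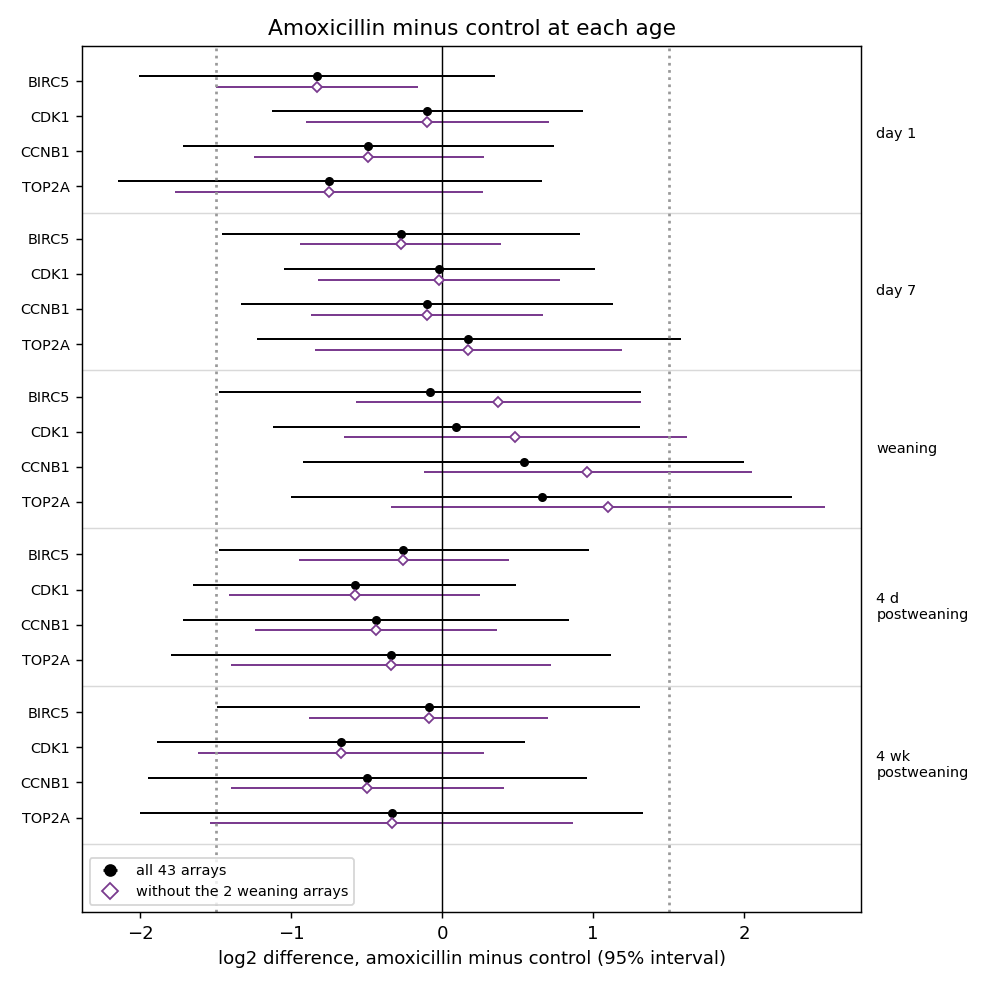
Log2 difference between amoxicillin and control piglets (x axis, points with 95% intervals) for the 4 proliferation genes at the 5 ages, from all 43 arrays (black circles) and without the 2 weaning arrays that stood apart (open diamonds); dotted lines mark the threshold of 1.5. Every interval from all 43 arrays includes 0.

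BIRC5 and CDK1 each had 2 probes, which made it possible to read the same transcript at separate spots. On control arrays the 2 probes of a gene differed by -0.43 to 0.25 for BIRC5 and by -0.09 to 0.35 for CDK1. On amoxicillin arrays the range was -1.56 to 0.47 for BIRC5 and -1.12 to 1.28 for CDK1, and the differences beyond 1 in size were all on slide 5, which held the amoxicillin weaning piglets. The step from weaning to 4 d postweaning, without the 2 arrays, was 2.12 by both BIRC5 probes in control piglets, and 1.63 and 1.35 in amoxicillin piglets. For CDK1 it was 2.48 and 2.44 in control piglets, but 1.87 and 0.92 in amoxicillin piglets, so that the size of the step in amoxicillin piglets depended on the probe. At weaning the treatment difference had opposite signs by the 2 probes of either gene, with -0.4 and 0.24 for BIRC5 and -0.51 and 0.7 for CDK1. The signs were also opposite for CDK1 on day 1 (0.01 and -0.2) and day 7 (0.19 and -0.23), and for BIRC5 at 4 wk postweaning (0.09 and -0.27).

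**Figure D5:**
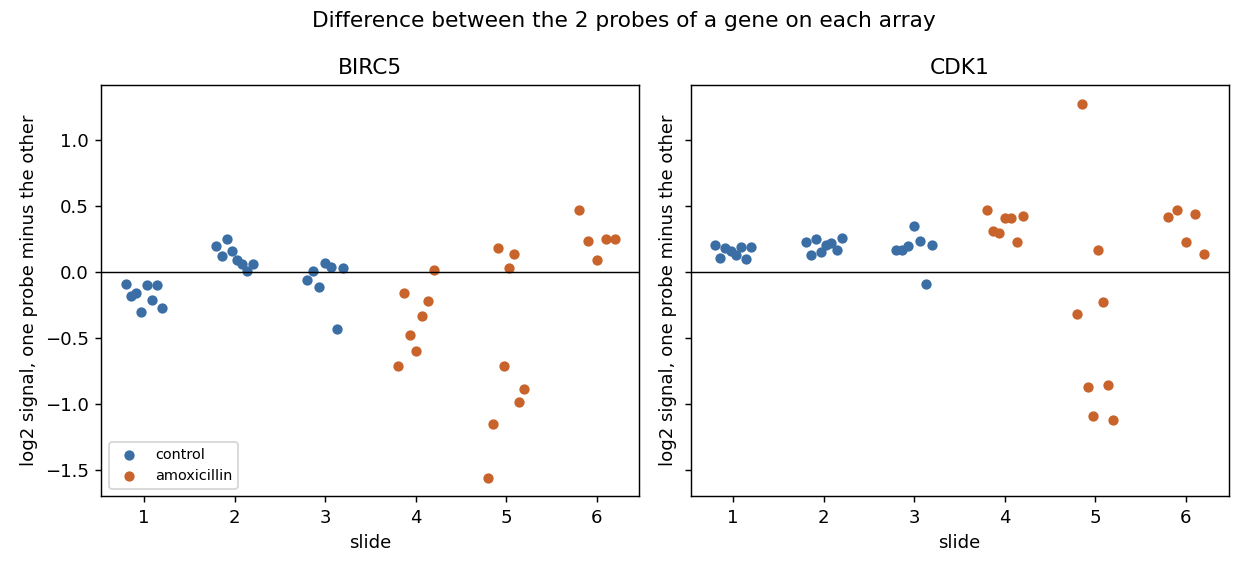
Difference in log2 signal between the 2 probes of BIRC5 (left) and of CDK1 (right) on each array (y axis), by slide (x axis), for control (blue) and amoxicillin (orange) piglets. The control arrays stay between -0.43 and 0.35, whereas amoxicillin arrays on slide 5 reach from -1.56 to 1.28.

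The 4 genes moved together from piglet to piglet. Deviations from the group means were correlated over the 43 arrays for each of the 6 pairs of genes, with permutation of arrays within groups. Pearson's r ranged from 0.8 (BIRC5 and TOP2A) to 0.92 (BIRC5 and CCNB1), and Spearman's rho from 0.63 (BIRC5 and TOP2A) to 0.85 (CCNB1 and TOP2A). The largest permutation p was 3e-04 for r and 7e-04 for rho, both for BIRC5 and TOP2A, and the same after adjustment over the 6 pairs. For 4 of the pairs (BIRC5 with CCNB1, BIRC5 with CDK1, CCNB1 with TOP2A and CDK1 with CCNB1) p was 1e-05 for r (adjusted p = 2e-05), the smallest that the permutations can give. When the 2 arrays farthest from the median were left out, r was 0.64 to 0.87. Within single slides r ranged from 0.08 to 0.99, and it was lowest for BIRC5 and TOP2A. The arrays share their normalisation, and the B lineage genes were high on 2 of them.

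Genes with the profile most like that of the 4 genes were sought among 1854 symbols, by the correlation with the mean of the 4 standardised genes over the 43 arrays, as a description. The 5 highest were HMGB2, a chromatin protein (r = 0.951), PCLAF, a PCNA binding factor (r = 0.939), PBK, a mitotic kinase (r = 0.928), MYBL2, a transcription factor of cell cycle genes (r = 0.925), and CCNB2, cyclin B2 (r = 0.911). Without the 2 arrays r was 0.944, 0.921, 0.902, 0.904 and 0.879 in the same order. HMGB2, MYBL2 and CCNB2 also stood on the G2 and M phase list.

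Other genes of the G2 and M phases were read from a list of 37, of which 9 had a probe and were tested, and with all arrays limma called 0 of 9 over the ages in either group. Without the 2 arrays 6 of 9 were called over the ages in control piglets (36.4% of all accessions), and 6 of 9 were called as higher at 4 d postweaning than at weaning (6.66% of all), with a median log2 difference of 1.74 over the 9 genes. In amoxicillin piglets 3 of 9 were called over the ages (52.4% of all accessions) and 2 of 9 as higher at 4 d postweaning (9.87% of all), with a median of 1. With the slide block in addition, the step was called for 1 of 9 in control piglets, HMGB2 (2.3% of all accessions), and for 7 of 9 in amoxicillin piglets (13.5% of all). In the fit without slide HMGB2 was higher by 2.07 ± 0.43 (SE) in control piglets (adjusted p = 0.00433), and CDC20, an activator of the anaphase promoting complex, by 1.93 ± 0.53 (adjusted p = 0.0239). In the same fit AURKA, the kinase of the mitotic spindle poles, was higher by 1.74 ± 0.54 in control (adjusted p = 0.0438) and by 2.09 ± 0.49 in amoxicillin piglets (adjusted p = 0.00656). Also without slide, STMN1, a regulator of microtubules, differed by 0.99 ± 0.35 in control piglets (adjusted p = 0.0774) and was higher by 1 ± 0.32 in amoxicillin piglets (adjusted p = 0.0416). With the slide block the control differences were 2.35 for HMGB2 (adjusted p = 0.033), 2.02 for CDC20 (adjusted p = 0.0995), 2.22 for AURKA (adjusted p = 0.0704) and 1.58 for STMN1 (adjusted p = 0.0654) in limma.

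S phase genes were poorly covered, with 2 of 23 listed genes tested. PRIM1, a primase subunit, and DNMT1 were not called over the ages with all arrays. Without the 2 arrays both were called as higher at 4 d postweaning than at weaning in control piglets, by 1.89 ± 0.48 and 1.32 ± 0.34 (adjusted p = 0.0165 for each; 6.66% of all accessions). In amoxicillin piglets these differences were 1.3 ± 0.44 and 0.91 ± 0.31 (adjusted p = 0.0546 and 0.052; 9.87% of all accessions). With the slide block in addition, DNMT1 alone was called in control piglets (1.75, adjusted p = 0.0346), and both genes in amoxicillin piglets (PRIM1 1.51, adjusted p = 0.0286; DNMT1 1.13, adjusted p = 0.0112).

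Among regulators of the G1 phase and of cell cycle exit, 10 of 23 listed genes were tested; 3 of 10 were called over the ages in control piglets (BTG2, CDKN2B and CDKN3) and 5 of 10 in amoxicillin piglets (CCND2, CCND3, CDKN1B, CDKN2B and CDKN3), beside 30.5% and 47% of all accessions. CCND2 and CCND3 are named here because they were called. CDKN3, a phosphatase that acts on cyclin-dependent kinases, was higher by 1.28 ± 0.47 (SE) at 4 wk postweaning than on day 1 in amoxicillin piglets (adjusted p = 0.0333) and differed by 1.13 ± 0.47 in control piglets (adjusted p = 0.0711). With slide as a fixed block its call over the ages was lost in control piglets (adjusted p = 0.464) and not in amoxicillin piglets (adjusted p = 0.0303). CDKN2B, an inhibitor of CDK4 and CDK6, rose by 1.61 ± 0.38 from day 1 to 4 wk postweaning in control piglets (adjusted p = 0.00139), and BTG2, an antiproliferative gene, fell by 1.07 ± 0.4 (adjusted p = 0.0427). CDKN1B, the inhibitor p27, was called over the ages in amoxicillin piglets (adjusted p = 0.000836), with its highest mean of 11.77 at weaning and its lowest of 10.69 at 4 wk postweaning. The calls over the ages for CDKN2B, BTG2 and CDKN1B were also lost with slide as a fixed block (adjusted p from 0.231 to 0.588).

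Of 12 crypt stem cell genes 2 had a probe, of which SOX9 was too dim to be tested. ASCL2, a transcription factor of crypt base stem cells, was lowest at weaning in both groups, with means of 8.46 ± 1.19 (SD, n = 3) in control and 8.08 ± 1.63 (n = 4) in amoxicillin piglets. It was higher at 4 d postweaning than at weaning in amoxicillin piglets, by 2.3 ± 0.69 (SE; adjusted p = 0.0388), and differed by 1.78 ± 0.71 in control piglets (adjusted p = 0.155). Unlike the mitotic genes, ASCL2 was not high on the 2 arrays, where it held rank 33 and 38 of 43. The call of the amoxicillin step was lost with no filter on dim probes (adjusted p = 0.0759), with a filter on spots well above background (adjusted p = 0.0514), with the scanner's processed signal (adjusted p = 0.125), with only the arrays of the groups compared (adjusted p = 0.395), with the piglet number as a block (adjusted p = 0.825) and without the 6 arrays with high FABP6 (adjusted p = 0.0667).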

How the data were processed

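Total RNA from jejunal scrapings was labelled with Cy3 and hybridised, 1 piglet per array, to 43 Agilent arrays scanned with Feature Extraction 10.7.3.1. The authors deposited the scanner files, whose median spot and background intensity was used here, and a table of background corrected and quantile normalised log2 values made with limma in R 3.0.2. Intensities were corrected with normexp (offset 1), quantile normalised and taken to log2 in limma 3.58.1 (R 4.3.3), which gave the deposited log2 values of 43603 probes within 5e-09. Between 1 and 209 gene spots per array with an outlier flag were left out, and probes of a transcript accession were averaged. The design had foreseen mean intensity and gene names; the median and accessions were used instead, and symbols came from RefSeq gene tables (3037 of 35884 accessions). Accessions above 7.68, which is 1.1 times the highest dark spot on the log2 scale (6.98), on every array of at least 1 group were kept, leaving 12771, of which 12475 had a value on every array.

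All 10 groups were fitted together with limma's lmFit and eBayes, and p-values were adjusted over all tested accessions (Benjamini-Hochberg). The paper describes each sample as an individual piglet, and no 2 arrays were identical. In the day 1 control group the labels 19 and 19B both occur, and whether these are separate animals was not tested. Number of arrays limits the precision. Genes were called at an adjusted p under 0.05, and for treatment only where the log2 fold change was also beyond 1.5. Correlations used 100000 permutations within groups. Piglet numbers recur across groups, and deviations of same-numbered piglets correlated from -0.27 to 0.44 (median 0.05, 4 of 10 pairs above 0.1). These few correlations cannot show whether samples share a sow, and the number was not used to pair them in the main fit. Litter and sow batch entered no fit, although the paper took a piglet from each sow at every age. All genes of interest with a probe were named, with the 4 genes of smallest p over ages from each cell cycle list and the 5 of most similar profile. Some genes of the lists are not reported here and do not enter the list counts. The genes and lists were chosen with earlier results of these data known. Alternatives changed the background correction, normalisation, filter, flags, probe averaging, arrays fitted, slide, piglet number, fold threshold and each array in turn. No sequences or coordinates are given, since the genome build of the array design is not given in the sources used here.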

Additional observations from a re-analysis of the deposited data

Results flagged for a closer look

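Single arrays stood far from the rest of their group, by Dixon's test at 95%, in 9 of 120 groups tested. For the proliferation genes this was 2 of 32 groups, and chance gives about 1 in 20 for independent groups. The groups here are not independent, since the genes were read on the same arrays and amoxicillin piglet 8 was flagged for more than 1 gene. The control groups of 3 piglets (weaning and 4 wk postweaning) were left out of this test, so control piglet 7 was not tested. Amoxicillin piglet 8 at weaning was the high array for BIRC5 (14.89, the next 11.35), CCNB1 (13.8, the next 10.49), STMN1 (14.25, the next 10.27) and AURKA (9.71, the next 6.78). DNMT1 was low on day 7 in control piglet 4 (9.64, the next 10.35) and in amoxicillin piglet 24 (9.63, the next 10.26). CDKN3 was low on day 7 in amoxicillin piglet 24 (8.88, the next 10.19). CDKN2B was high in amoxicillin piglet 40 at 4 wk postweaning (9.31, the next 8.29), and ASCL2 low in amoxicillin piglet 7 at weaning (5.65, the next 8.74).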

How the results depend on the processing

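Under 14 other ways of processing or fitting all arrays, 1 of 884 tests of the 4 genes was called and 46 estimates or differences changed sign, 25 of them with the piglet number as a block. The call was CCNB1 from day 1 to day 7 in control piglets with only the arrays of the groups compared (1 of 4 genes, adjusted p = 0.0487). With the replicate block, which left 7 residual degrees of freedom, 0 of 4 genes were called in every comparison, and with slide as a random block or, in the comparisons it allowed, as a fixed block 0 of 4 as well. Leaving out each array in turn gave between 0 and 3 called genes for the ages in control piglets and for the step from weaning to 4 d postweaning in control piglets, the 3 being BIRC5, CDK1 and CCNB1 without control piglet 7 (adjusted p from 0.0103 to 0.0411), and 0 for all other comparisons. Without control piglet 25 the step was -0.15 for BIRC5, 0.54 for CDK1, 0.28 for CCNB1 and -0.09 for TOP2A, against 0.76, 1.49, 1.34 and 1.17 with all arrays.

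Alternatives chosen after seeing the data changed the calls. Without the 2 weaning arrays, 4 genes were called over the ages in control and 1 in amoxicillin piglets, 4 and 1 in the step after weaning, and 1 between day 1 and 4 wk postweaning in amoxicillin piglets. Leaving out the 6 arrays with FABP6 above 15 gave the same counts, but these include the 2 weaning arrays, so that it is no separate support. Without the 2 arrays and with slide as a fixed block the counts were 4, 2, 4, 3 and 1, in the same order. In that fit the control step after weaning rests on 1 piglet at 4 d postweaning, piglet 10, against 2 at weaning. The cause of the changed calls was not tested.

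Counts over all accessions varied more than 1.5 times between settings, from 2 to 1015 for treatment at weaning, from 44 to 6273 for the ages in control and from 19 to 12472 in amoxicillin piglets, from 0 to 1163 and from 2 to 1688 for the step after weaning, and from 24 to 1988 for treatment by age. The counts of 12472 and 1988 came with no filter, over 35884 accessions instead of 12771, so they are not on the same base. The count of 1015 came without the fold threshold. Groups of 3 to 6 piglets left intervals for treatment as wide as -1 to 2.32 (TOP2A at weaning), and 2 of the 6 genes had no probe.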

Other observations

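FABP6 was above 15 on 6 arrays and between 6.55 and 14.65 (median 9.21) on the other 37, a pattern looked for after the data were seen. Among these 6, the proliferation genes were all highest of their group in control piglet 7 and amoxicillin piglet 8 at weaning, control piglet 13 at 4 wk and amoxicillin piglet 10 at 4 d postweaning. Control piglet 10 at 4 d postweaning ranked 2, 2, 1 and 1 of 5 for BIRC5, CDK1, CCNB1 and TOP2A, and amoxicillin piglet 40 at 4 wk postweaning ranked 4, 3, 2 and 2 of 4. SLC10A2, another ileal gene, was between 10.31 and 13.58 on 4 of the 6 arrays and at 8.55 and 8.81 on the 2 weaning arrays.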
